A study of Mus musculus with 4 samples.

Results

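Endocardial endothelial cells of the juvenile mouse heart were picked out of single-cell libraries by a gate on UMIs (unique molecular identifiers, each standing for 1 captured transcript). The gate kept barcodes with at least 1000 UMIs and at most 20% of them from mitochondrial genes. It then required at least 3 UMIs in the sum of the endothelial genes Pecam1, Cdh5 and Egfl7, and at least 4 in the sum of Npr3, Cytl1 and Tmem108. Cells with more than 4 UMIs in the sum of Dcn, C1qa, C1qb, C1qc and Kcnj8, which mark fibroblasts, macrophages and pericytes, were left out, as were cells with more than 1 UMI of the lymphatic genes Prox1 and Mmrn1. The gate found 84 cells among 26765 deposited barcodes, of which 21581 passed the depth and mitochondrial limits. They are called endocardial-gate cells here, and since measured values chose them, the levels of the 13 gate genes are given as a description without a test. Other endothelial cells met the same limits with an Npr3, Cytl1 and Tmem108 sum of at most 1 and numbered 6904, and 39 cells lay between the gates.

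The hearts came from offspring aged 6 weeks in 2 diet groups, each with 2 libraries that the labels call repeats. Dams of the high fibre group ate a feed rich in resistant starch, a prebiotic fibre, while pregnant and nursing. Dams of the other group ate what the labels call a control diet, described in the design text as low in resistant starch. All offspring of both groups moved to the same standard chow at weaning, at 3 weeks. Hearts were perfused with collagenase IV and dispase II, a flow sort kept live, nucleated and metabolically active cells, and droplet libraries were made with a 10x Genomics 3′ kit, version 2 per the labels. The labels give no strain, no sex and no number of animals per library, so every p-value rests on how far these 4 libraries lie apart, some of which may be technical.

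The 4 libraries held 7846, 9036, 6917 and 2966 barcodes and between 27577599 and 69600492 UMIs, in the order high fibre 1, high fibre 2, control diet 1 and control diet 2, which is kept for every list of 4 values. They gave 13, 25, 24 and 22 endocardial-gate cells, whose UMIs summed to 130957, 200503, 209832 and 199391. A level in CPM, the usual scaling of counts to a common total, is a gene's share of such a sum, so in these sums 1 UMI is worth between 4.77 and 7.64 CPM, and a count of 0 over all 84 cells allows a level of up to 4.05 CPM (3 UMIs), a limit that covers counting error only. Endocardial-gate cells were deeper than other endothelial cells, with a median of 8308 against 5064 UMIs, and held a smaller mitochondrial share, with a median of 4.48% against 8.11%. No barcode was shared between 2 endocardial-gate cells of different libraries, while 99 barcodes among all cells that passed the first limits occurred in more than 1 library. In high fibre 1 the other endothelial cells carried 6783 CPM of erythroid and platelet genes in sum, against 1273 to 2136 CPM in the other 3 libraries.

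The endocardium is the endothelial layer that lines the chambers and covers the valves of the heart. It faces the blood of the cavities and exchanges signals with the muscle beneath it, among them neuregulin, Notch and bone morphogenetic protein signals, while the capillaries of the heart wall specialise in passing fatty acids and oxygen to muscle cells. During development, endocardium of the valve regions gives rise to mesenchymal cells, and endocardial cells share several transcription factors with heart muscle.

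Npr3 encodes the natriuretic peptide clearance receptor, which takes up natriuretic peptides and removes them. Cytl1 encodes a small secreted cytokine-like protein, and Tmem108 a transmembrane protein. On GRCm38 (mm10) with GENCODE M21, Npr3 lies on chr15:11839896-11907287 on the minus strand, Cytl1 on chr5:37735519-37739820 on the plus strand and Tmem108 on chr9:103482947-103761837 on the minus strand. The 250 bases before a start of Cytl1, Npr3 and Tmem108, from RefSeq on GRCm38.p6, are printed because the cells were chosen on these genes. For Tmem108 only the upstream of 2 starts is printed. Capitals mark a match to GGAAAA, the core read by NFAT factors such as Nfatc1, which the Cytl1 window holds 58 bases before the start.
Cytl1 (chr5:37735269-37735518, plus strand): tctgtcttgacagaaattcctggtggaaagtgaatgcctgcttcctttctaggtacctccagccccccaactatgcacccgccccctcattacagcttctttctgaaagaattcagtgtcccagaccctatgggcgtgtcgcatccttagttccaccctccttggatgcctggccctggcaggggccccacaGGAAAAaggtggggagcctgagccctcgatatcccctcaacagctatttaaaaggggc
Npr3 (chr15:11907372-11907621, minus strand): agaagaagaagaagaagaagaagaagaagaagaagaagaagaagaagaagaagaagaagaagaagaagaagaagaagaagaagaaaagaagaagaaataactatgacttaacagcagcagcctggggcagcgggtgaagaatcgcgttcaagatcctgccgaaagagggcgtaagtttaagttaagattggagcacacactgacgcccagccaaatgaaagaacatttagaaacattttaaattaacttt
Tmem108, upstream start (chr9:103761838-103762087, minus strand): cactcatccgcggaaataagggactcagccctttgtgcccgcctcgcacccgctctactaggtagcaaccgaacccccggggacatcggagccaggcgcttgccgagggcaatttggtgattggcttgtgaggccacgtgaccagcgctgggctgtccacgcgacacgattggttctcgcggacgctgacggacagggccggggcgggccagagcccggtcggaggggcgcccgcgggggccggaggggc
Both strands were searched for GGAAAA and for GATAA, the core read by GATA factors such as Gata4, over the gate genes and the genes with the largest rises. A promoter was held for 13 of 21 genes, some with 2 starts, and GATAA was found in 3 and GGAAAA in 4 of 16 windows. Among 32851 RefSeq promoter windows of the same length, 22.6% held GATAA and 20.4% held GGAAAA. The Npr3 window meets the gene Gm5144. A match is a description of the letters and not a binding site.

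The gate sum of Npr3, Cytl1 and Tmem108 ran from 4 to 82 UMIs per cell, with a median of 17. Npr3 had a UMI in 52 of 84 cells (61.9%, exact binomial 95% interval 50.7% to 72.3%), Cytl1 in 73 and Tmem108 in 61, and 37 cells had all 3. Levels of Npr3 were 641, 1307, 596 and 883 CPM, against a mean of 2.24 ± 0.557 CPM (SD, n = 4) in other endothelial cells. Cytl1 stood at 1458, 1287, 1063 and 1344 CPM and Tmem108 at 374, 514, 491 and 381 CPM. Every library showed all 3 genes, and in each the level was far above that of other endothelial cells, as the gate requires. The 9 cells with a sum of 4, just inside the limit, held 1909 CPM of Vwf and 304 CPM of Plvap, and the 11 cells with a sum of 3, just outside it, held 1101 and 469.6 CPM. The same cells held much of the capillary genes, with 17910 and 12766 CPM of Fabp4 and 1497 and 954 CPM of Cd36, and H19 was at 0 and 103 CPM.

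The 3 gate genes were also looked at in cells that each had not chosen, again as a description. Npr3 alone chose 61 cells (at least 2 UMIs). They were set against 6864 endothelial cells with no Npr3 UMI, among them the endocardial-gate cells without Npr3. Cytl1 was at 717, 1169, 913 and 540.3 CPM, against 13.8 ± 6.00 CPM (SD, n = 4), and Tmem108 at 350.01, 625, 529.7 and 436 CPM, against 3.83 ± 1.07 CPM. When Cytl1 and Tmem108 chose the cells (at least 2 UMIs in sum, 101 cells), Npr3 was at 514, 1035, 490.5 and 800.6 CPM. It was at 3.19 ± 0.451 CPM in 6830 endothelial cells with no UMI of Cytl1 or Tmem108. The 3 genes were proposed together as markers with results of these data in view, so their levels in each other's cells do not bear on the label.

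**Figure D1:**
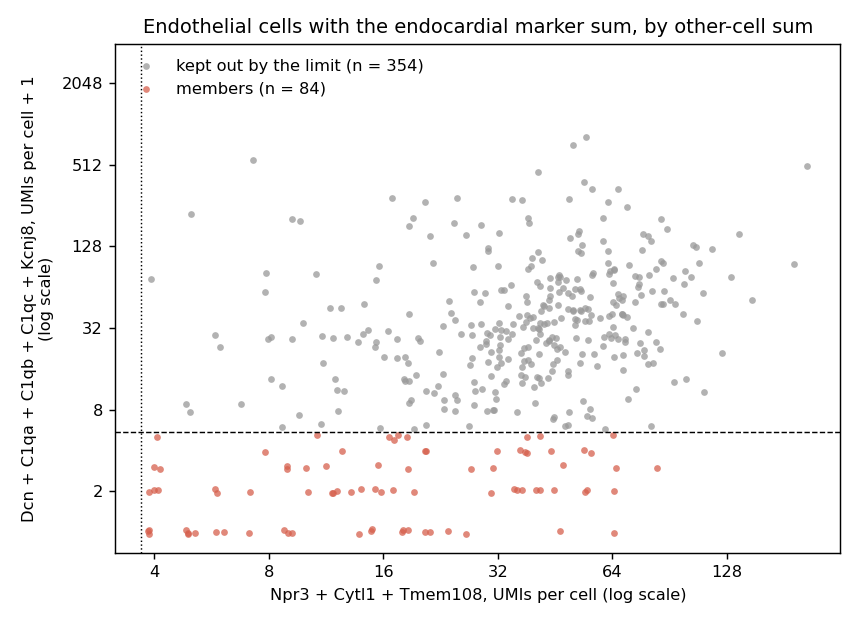
Each point is 1 of 438 cells that met the endothelial and lymphatic limits and had at least 4 UMIs of Npr3, Cytl1 and Tmem108 in sum (x axis, log scale). The y axis is the sum of Dcn, C1qa, C1qb, C1qc and Kcnj8 UMIs plus 1 (log scale), the dashed line is the limit on that sum, and points are shifted slightly so that they do not cover each other. The 84 endocardial-gate cells lie under the line and 354 cells lie above it, where the 339 kept out by Dcn alone have a median marker sum of 42 against 17 under the line.

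The limit on other-cell genes removed most candidates. Of 438 cells that met the other limits, 354 (80.8%) failed it, 339 of them through Dcn alone. Dcn encodes decorin, a matrix proteoglycan typical of fibroblasts. In these 339 cells, 5 of 6 marker genes were higher than in endocardial-gate cells: over the pooled cells Npr3 was 1557 against 874 CPM, Cytl1 1936 against 1269 CPM, Plvap 783 against 510 CPM and Nrg1 253 against 35.1 CPM, while Vwf was 1657 against 1794 CPM. Tmem108 was at 479, 646, 657 and 730.5 CPM in them by library, above its level in the endocardial-gate cells of the same library each time. Their Npr3 was detected in 92.0% of cells and their median depth was 10148 UMIs. Their fibroblast genes were higher in sum, at 8436 to 11073 CPM over the libraries against 824 to 1264 CPM in endocardial-gate cells. That sum includes Dcn, which chose the cells and was at 5174 against 134 CPM over the pooled cells. The sum of Col1a1, Col1a2, Col3a1 and Pdgfra, which did not choose them, was 745 against 97.2 CPM. The ratio of Dcn to the sum of Col1a1, Col1a2, Col3a1 and Pdgfra was 6.95 in the 339 cells, 2.74 in 3972 cells of a fibroblast gate and 1.40 in other endothelial cells. Dcn, its numerator, was chosen high in the first 2 sets and limited in the last, so the ratios are partly set by the gates. In 212 of the 339 cells with at most 2 UMIs of those collagen and Pdgfra genes, a subset chosen on the ratio's denominator, Dcn still stood at 3771 CPM. Whether the 339 cells are endocardial cells that express Dcn, or endocardial cells mixed with fibroblast RNA, was not tested, and results that move without the Dcn limit are given beside the main ones.

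Over all genes outside the gate, 981 of 10896 tested were higher in endocardial-gate cells (9.0%) and 1213 were lower (11.1%), at an adjusted p under 0.05 in edgeR's quasi-likelihood test on UMI sums with the library as a block. The median log2 difference over all genes tested was -0.10. These shares and this median are the ones to set beside the counts and medians of every gene list below. With each cell thinned to 2000 UMIs, which evens out depth, 322 were higher and 545 lower, and 803 of the 2194 genes called in the full sums were called again. Without the Dcn limit, 2544 were higher and 2433 lower, and 2003 of the 2194 were called again.

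Markers of the endocardium outside the gate were high. Vwf, the platelet-tethering von Willebrand factor (chr6:125546774-125686679), was at 1344, 1706, 1797 and 2177 CPM against 40.4 ± 9.06 CPM in other endothelial cells (SD, n = 4; log2 difference 5.28, SE 0.14, edgeR adjusted p = 1.12e-107, higher in 4 of 4 libraries). Plvap, a component of the diaphragms that close fenestrae and caveolae (chr8:71497765-71511752), was at 252, 524, 877 and 281 CPM against 4.86 ± 1.26 CPM (log2 difference 6.41, SE 0.54, edgeR adjusted p = 0.00379, higher in 4 of 4 libraries). In cells with 0 UMIs of Dcn, C1qa, C1qb, C1qc and Kcnj8, the Plvap difference was 5.403 and not called (edgeR adjusted p = 0.345). That limit, used for further genes below, left 5, 3, 8 and 9 endocardial-gate cells by library. Every library sum of Vwf and of Plvap in endocardial-gate cells lay above every sum in other endothelial cells, though single cells of the 2 sets overlapped. After thinning to 2000 UMIs, Vwf had a UMI in 79.0% of 81 endocardial-gate cells and 3.90% of 6537 other endothelial cells, and Plvap in 43.2% and 0.627%. Thinning left out 3 and 367 shallower cells, and before it Vwf was detected in 83.3% and 7.40% and Plvap in 59.5% and 1.40%. In 3928 cells of the fibroblast gate, which had a median of 12630.5 UMIs before thinning, Vwf was detected in 0.127% and Plvap in 3.03% of thinned cells. Nrg1, the neuregulin ligand (chr8:31814551-32884029), was at 0, 19.9, 28.6 and 80.2 CPM, from 26 UMIs in 10 cells, and did not pass the filter on low counts. It had no UMI in high fibre 1, which allows up to 22.9 CPM, and other endothelial cells held 0.112 ± 0.104 CPM. Vwf, Plvap and Nrg1 were proposed as markers with earlier results of these data in view, so their rise is not independent support for the label.

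**Figure D2:**
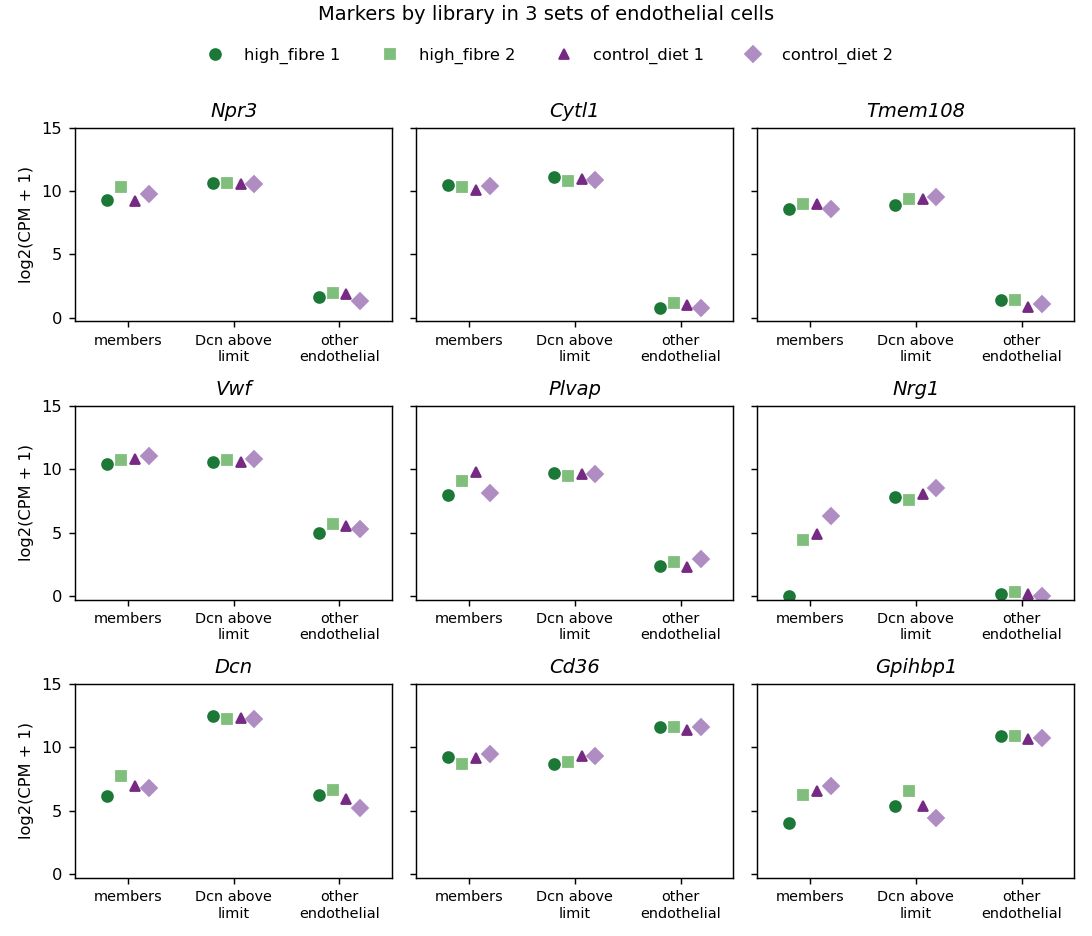
Points give log2(CPM + 1) of 9 genes in each library (shape and colour) for endocardial-gate cells, for the 339 cells kept out by Dcn alone and for other endothelial cells. Npr3, Cytl1, Tmem108, Vwf and Plvap are high in the first 2 sets and low in the last, Dcn is high in the middle set by its definition, and Cd36 and Gpihbp1 are highest in other endothelial cells.

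Of 20 genes in an endocardial list, 17 passed the filter and 16 were higher, with 0 lower and a median log2 difference of 3.42. Over all genes tested, 9.0% were higher. The list was drawn from general knowledge, but with earlier results of these data known, and it holds Vwf and Plvap. Its rise is therefore not independent support for the label. Smoc1, a secreted calcium-binding matrix protein, was at 99.3, 84.8, 119 and 85.3 CPM against 0.179 ± 0.177 CPM (log2 difference 8.69, SE 0.57, edgeR adjusted p = 1.27e-35, higher in 4 of 4 libraries). Cdh11, a cadherin of mesenchymal and valve cells, was at 466, 324, 415 and 497 CPM against 1.22 ± 0.130 CPM (log2 difference 8.22, SE 0.21, edgeR adjusted p = 4.04e-109, higher in 4 of 4 libraries). The list's smaller rises were in genes that other endothelial cells also expressed, among them Nfatc1, a transcription factor that marks embryonic endocardium (log2 difference 0.99), and Notch1 (0.57). Without control diet 2, Nfatc1 gave 0.81 and was no longer called. Tal1, a blood and endothelial transcription factor, was not called (log2 difference 0.78, edgeR adjusted p = 0.0565). Hapln1, a hyaluronan link protein, was counted in the control diet libraries alone, from 18 UMIs, and Irx6 had no UMI.

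Transcription factors moved in both directions: 11 higher and 7 lower among 25 tested, median log2 difference 0.43. Over all genes tested, 9.0% were higher and 11.1% lower. Hand2, a factor of the heart fields and endocardium, was at 145, 135, 100.1 and 166 CPM against 1.90 ± 0.485 CPM (log2 difference 5.97, SE 0.39, edgeR adjusted p = 5.75e-36, higher in 4 of 4 libraries). Gata4, which acts in heart muscle and endocardium, was at 45.8, 24.9, 33.4 and 55.2 CPM against 0.995 ± 0.439 CPM and rose by 5.12 on the log2 scale. Foxc2 rose by 4.64, Meis2 by 4.35, Irx5 by 4.07, Foxc1 by 3.44, Gata6 by 2.88 and the venous factor Nr2f2 by 2.43. The factors that fell were Pparg, the regulator of fatty acid genes (log2 difference -4.57), Meox1 (-3.35), Tcf15 (-3.22), Meox2 (-2.0), Msx1 (-1.87), Sox18 (-1.30) and Mecom (-0.77). Pparg had 3 UMIs in all endocardial-gate cells, and other endothelial cells held 87.3 ± 10.2 CPM.

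The largest rises among genes that moved the same way in all 4 libraries and reached a mean of 50 CPM ran from 6.58 to 9.91 on the log2 scale. Igfbp5, an insulin-like growth factor binding protein, was at 3872, 3232, 5948 and 3812 CPM against 38.6 ± 6.27 CPM (log2 difference 6.58, SE 0.15, edgeR adjusted p = 5.23e-112, higher in 4 of 4 libraries). It was high in every library and was counted in 62 of 84 cells. H19, the imprinted growth-restraining RNA, was uneven at 839.97, 145, 1177 and 331 CPM in 21 cells (log2 difference 8.32, SE 0.72, edgeR adjusted p = 0.00615, higher in 4 of 4 libraries), and without high fibre 1 the difference was 8.50 and not called. Lyve1, a hyaluronan receptor best known from lymphatic vessels, was at 412, 369, 229 and 130.4 CPM against 1.81 ± 0.679 CPM and rose by 7.10. Further rises were in Cyp1b1 (7.80), Ahsg (7.71), Gpm6a (7.65), the parathyroid hormone-like Pthlh (7.24), the phospholipase Pla2g4a (7.11), the organic anion transporter Slco1a4 (6.96), Kank1 (6.75), Smoc1 and Cdh11.

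For 2 of the 15, a single cell held most UMIs. Inhba, the activin beta A subunit, was at 53.5, 54.9, 1311 and 20.1 CPM (log2 difference 9.91, SE 1.42, edgeR adjusted p = 0.0247, higher in 4 of 4 libraries), and 271 of its 297 UMIs (91.2%) came from 1 cell of control diet 1. Its difference was 10.17 without control diet 2 and 10.52 without high fibre 2, not called in either. Gkn3 was at 76.4, 474, 47.7 and 181 CPM (log2 difference 6.82), and 95 of its 151 UMIs (62.9%) came from 1 cell of high fibre 2. All 151 lay in the 9 cells of 1 of the groups described further on (group 4), which goes against the label.

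**Figure D3:**
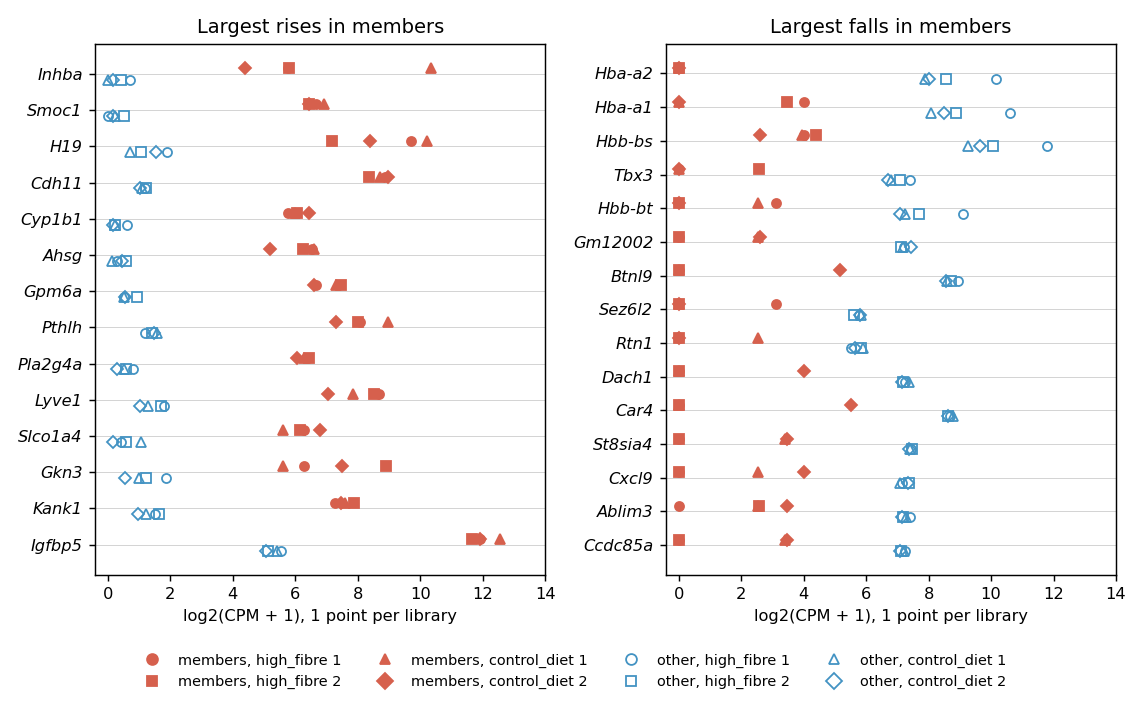
Each point is log2(CPM + 1) of a gene in 1 library, filled for endocardial-gate cells and open for other endothelial cells, for 14 of the 15 genes with the largest rises (left) and the 15 with the largest falls (right). The filled and open points do not meet for any gene shown, Inhba spreads from 20.1 to 1311 CPM over the libraries, and the haemoglobin genes are highest in other endothelial cells of high fibre 1.

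The natriuretic peptide list gave 2 higher and 1 lower among 7 tested, median log2 difference -0.04. Pde3a, a phosphodiesterase inhibited by cyclic GMP, was at 115, 99.7, 100.1 and 120.4 CPM against 3.70 ± 0.655 CPM (log2 difference 4.71, SE 0.37, edgeR adjusted p = 1.65e-27, higher in 4 of 4 libraries). Prkg1, the cyclic GMP-dependent kinase, was at 22.9, 29.9, 42.9 and 25.1 CPM against 1.20 ± 0.450 CPM and rose by 4.52. Pde2a, a phosphodiesterase activated by cyclic GMP, was lower (log2 difference -1.62), but the call was lost without high fibre 2 (-1.60), in DESeq2 (-1.61), when Npr3 alone chose the cells (-1.38), with 0 UMIs of Dcn, C1qa, C1qb, C1qc and Kcnj8 (-1.18) and after thinning to 2000 UMIs (-2.30). The guanylyl cyclase receptors Npr1 (log2 difference -0.35) and Npr2 (-0.37) did not pass the test. Nppa and Nppb, the cardiac peptides, had no UMI in endocardial-gate cells, and Nppc, the C-type peptide, had 69 UMIs, all in control diet 1.

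The neuregulin and epidermal growth factor list gave 1 higher and 0 lower among 5 tested, median log2 difference 0.67. The called gene was Tgfa, a ligand of the epidermal growth factor receptor, at 7.64, 4.99, 4.77 and 25.1 CPM, which is 8 UMIs in 6 cells (log2 difference 4.12). Hbegf, another ligand of that receptor, was at 53.5, 14.96, 119 and 15.05 CPM and was not called (edgeR adjusted p = 0.144). The receptors Erbb3 and Erbb4 had no UMI, and Erbb2 was not called (log2 difference 0.67). These counts are small, so most of the ligands and receptors could not be tested at this depth.

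Notch genes moved both ways (5 higher and 6 lower among 17 tested, median log2 difference -0.01). Among receptors, Notch1 was higher (336, 229, 305 and 266 CPM against 169 ± 15.3 CPM, log2 difference 0.57). Among ligands, Dll1 (115, 94.8, 71.5 and 50.2 CPM, log2 difference 1.61) and Jag1 (1.29) were higher, and Dll4 (-1.71) and Jag2 (-1.45) were lower. Among target genes, Hey2 was higher (3.93, from 15 UMIs in 8 cells), Nrarp was lower (-1.43), and Hes1 was not called (-0.01). Mfng, a glycosyltransferase that modifies Notch receptors, was lower (-1.59). When Npr3 alone chose the cells, Dll1 (0.54) and Jag1 (0.14) were no longer called.

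Bone morphogenetic protein and transforming growth factor genes were more often higher than lower (12 higher and 4 lower among 24 tested, median log2 difference 0.66). Of the ligands, Bmp4 was at 61.1, 149.6, 153 and 60.2 CPM against 19.6 ± 3.14 CPM (log2 difference 2.27, SE 0.25, edgeR adjusted p = 1.57e-15, higher in 4 of 4 libraries), and Bmp6 (log2 difference 1.02), Inhbb (4.10) and Inhba were higher too. Of the receptors, Bmpr1a was at 68.7, 79.8, 47.7 and 30.1 CPM against 1.55 ± 0.335 CPM (log2 difference 4.97, SE 0.51, edgeR adjusted p = 6.96e-18, higher in 4 of 4 libraries), and Tgfbr2 (1.29) and Bmpr2 (0.93) were higher. The inhibitory Smad6 rose (1.98) and the signal-carrying Smad5 fell (-1.40). Of the target genes, Id2 rose (2.17), and Id1 (-1.58) and Id3 (-0.72) fell. Bmp10 and the antagonist Fst had no UMI.

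Genes of blood clotting, fibrinolysis and platelet control were higher or not called (12 higher and 0 lower among 20 tested, median log2 difference 1.44). Beside Vwf, the genes that rose include Selp, the P-selectin stored with von Willebrand factor (22.9, 4.99, 57.2 and 40.1 CPM against 1.24 ± 0.314 CPM, log2 difference 4.40). Ptgis, the prostacyclin synthase, was at 191, 54.9, 138 and 176 CPM against 2.30 ± 1.31 CPM (log2 difference 5.74, SE 0.40, edgeR adjusted p = 6.84e-25, higher in 4 of 4 libraries), and the cyclooxygenase Ptgs1 was at 344, 429, 486 and 261 CPM against 41.7 ± 6.34 CPM (log2 difference 3.01, SE 0.16, edgeR adjusted p = 2.71e-49, higher in 4 of 4 libraries). The inducible cyclooxygenase Ptgs2, the thrombin inhibitor Serpine2, the nucleotidase Entpd1, the tissue factor inhibitor Tfpi, the thrombin receptor F2r, the nitric oxide synthase Nos3 and Anxa2 rose by 0.68 to 4.39. Thbd, thrombomodulin, was at 259.6, 379, 319 and 411 CPM against 304 ± 23.8 CPM and was not called (log2 difference 0.00).

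Vasoactive genes gave 8 higher and 4 lower among 14 tested, median log2 difference 1.06. Edn1, the precursor of endothelin, was at 191, 99.7, 343 and 196 CPM against 30.05 ± 5.89 CPM (log2 difference 2.61, SE 0.31, edgeR adjusted p = 3.16e-05, higher in 4 of 4 libraries). Its processing enzyme Ece1 (log2 difference 1.28), Nos3 (1.26) and the adrenomedullin receptor Calcrl (1.5) were higher. The apelin receptor Aplnr (-4.49) and adrenomedullin Adm (-3.33) were lower. Apln had no UMI in endocardial-gate cells, against 39.7 ± 9.22 CPM, and was at least 9.72-fold lower when 3 UMIs over the group are taken as the floor.

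Genes of heart capillaries were lower throughout the list: 19 of 19 tested genes fell, with a median log2 difference of -3.04. Gpihbp1, which anchors lipoprotein lipase on capillaries, was at 15.3, 74.8, 95.3 and 120.4 CPM against 1814 ± 161 CPM (log2 difference -4.64, SE 0.26, edgeR adjusted p = 1.29e-08, lower in 4 of 4 libraries). Cd36, a fatty acid transporter, was at 596, 409, 586 and 717 CPM against 3060.2 ± 257 CPM (log2 difference -2.59, SE 0.13, edgeR adjusted p = 8.68e-52, lower in 4 of 4 libraries). Fabp4, a fatty acid binding protein, was at 4727, 6364, 7253 and 7498 CPM against 24844 ± 1652 CPM (log2 difference -2.13), so it was lower in every library but still counted in 80 of 84 cells. After thinning, Gpihbp1 had a UMI in 11.1% of endocardial-gate cells and 90.6% of other endothelial cells, Cd36 in 40.7% and 97.3%, and Fabp4 in 79.0% and 99.6%. Before thinning, the shares were 25.0% and 95.9% for Gpihbp1, 64.3% and 98.9% for Cd36, and 95.2% and 99.7% for Fabp4. Btnl9 fell by 5.61 on the log2 scale, Car4, a carbonic anhydrase, by 5.24 and Rgcc by 4.76, and all 7 UMIs of Btnl9 came from 1 cell of control diet 2. Rgcc gave -4.50 without high fibre 1 and -4.49 without high fibre 2, and was not called in either.

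The wider set of fatty acid uptake and peroxisome proliferator-activated receptor target genes gave 2 higher and 12 lower among 18 tested, median log2 difference -2.07. The lipases Lpl and Lipe, the lipase regulator Angptl4, the acyl-CoA synthetase Acsl1 and the lipid droplet protein Plin2 gave log2 differences of -3.04, -2.40, -3.33, -3.24 and -1.94. Fabp5, another fatty acid binding protein, went the other way, at 2146, 3192, 3779 and 2894 CPM against 1627 ± 196 CPM (log2 difference 0.70), though it gave -0.04 and was not called in cells with 0 UMIs of Dcn, C1qa, C1qb, C1qc and Kcnj8. Of 10 diaphragm and caveola genes, Plvap alone was higher, while the caveolins Cav1 (-1.40) and Cav2 (-1.18), Cd34 (-1.08), Ehd2 (-0.96), Esam (-0.95) and Cavin2 (-0.66) were among the 7 that were lower.

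Arterial genes gave a mixed picture (7 higher and 4 lower among 15 tested, median log2 difference 0.73). Bmx, a kinase of arterial endothelium and endocardium, was at 153, 189.5, 95.3 and 231 CPM against 5.74 ± 1.08 CPM (log2 difference 4.67, SE 0.28, edgeR adjusted p = 1.2e-38, higher in 4 of 4 libraries) and was counted in 41 cells. Gja5, an arterial connexin, was at 84.00, 29.9, 0 and 125 CPM from 8 cells (log2 difference 2.65), and had no UMI in cells chosen by Npr3 alone, where the fitted difference was -8.38 and not called. Cxcl12 (-3.87) and Rbp7 (-2.85) were lower, though Cxcl12 gave -3.53, -3.73 and -3.62 without high fibre 1, high fibre 2 and control diet 1 and was not called in these. Sox17 was not called, at 168, 19.9, 38.1 and 140.4 CPM. It stood at 590 CPM in the 9 cells of group 4, described further on, and at 10.8 CPM in the other endocardial-gate cells.

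Venous genes gave 6 higher and 1 lower among 10 tested, median log2 difference 2.22. Among those higher, beside Selp and Nr2f2, were the adhesion molecules Vcam1 (290.2, 469, 719.6 and 562 CPM against 50.3 ± 9.84 CPM, log2 difference 3.20) and Icam1 (2.01) and the cytokine receptor subunit Il6st (2.48). Of the lymphatic list, Lyve1 and Fgl2 were higher among 3 tested. Fgl2 had 10 of its 15 UMIs in 1 cell of control diet 1, and gave 0.22 without control diet 1 and 2.82 without control diet 2, not called in either. Pdpn, Reln and Ccl21a, further lymphatic markers, had no UMI.

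Of the valve list, Wnt9b, a Wnt ligand of valve endocardium, was at 38.2, 24.9, 191 and 85.3 CPM in 11 cells against 1.31 ± 0.341 CPM (log2 difference 5.63, SE 0.52, edgeR adjusted p = 4.59e-21, higher in 4 of 4 libraries), and Tgfbi (log2 difference 3.42), the proteoglycan Vcan (3.04) and Edn1 were higher. The list gave 4 higher and 1 lower among 7 tested, median log2 difference 2.61. Wnt4 had 27 UMIs and did not pass the filter. Sox9 and Scx, factors of valve mesenchyme, and the hyaluronan synthase Has2 had no UMI.

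Matrix genes moved both ways (12 higher and 10 lower among 29 tested, median log2 difference 0.97). Mgp, which holds back calcification, was at 9156, 6549, 5857 and 7217 CPM against 104 ± 33.4 CPM (log2 difference 5.97, SE 0.15, edgeR adjusted p = 4.26e-53, higher in 4 of 4 libraries). Over the cell groups 1 to 4 described further on, Mgp was at 6400, 2916, 7799 and 18947 CPM. The matrix list summed to 11799, 8046, 13951 and 31572 CPM over the same groups. Bgn, a small proteoglycan, was at 634, 828, 801 and 908 CPM against 36.3 ± 8.90 CPM (log2 difference 4.30, SE 0.14, edgeR adjusted p = 9.26e-85, higher in 4 of 4 libraries). Col5a2 (4.30), elastin Eln (3.64), Col6a1 (2.38) and fibronectin Fn1 (2.08) were higher. Basement membrane genes Col4a1 (283, 289, 262 and 527 CPM against 1634 ± 142 CPM, log2 difference -2.46), Col4a2 (-2.85), Col15a1 (-4.17), Lamb1 (-1.24) and Hspg2 (-0.82) were lower, as were Sparc (-2.06) and Sparcl1 (-3.03). Lama4 (-0.17), Lama5 (-0.03) and Col18a1 (0.50), also of basement membranes, were not called, and Lamb2 was higher (0.97). Fibroblast genes stood at 824 to 1264 CPM in sum over the libraries of endocardial-gate cells and 217 to 473 CPM in other endothelial cells, with Pdgfra at 0. Their part in the matrix values was not tested, and in cells with 0 UMIs of Dcn, C1qa, C1qb, C1qc and Kcnj8 the Mgp difference was 5.39 and no longer called.

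Junction genes gave 5 higher and 7 lower among 17 tested, median log2 difference -0.29. Ocln, a tight junction protein, was at 38.2, 24.9, 23.8 and 20.1 CPM against 0.334 ± 0.217 CPM (log2 difference 6.02, SE 0.69, edgeR adjusted p = 8.87e-15, higher in 4 of 4 libraries), and the junction scaffold Cgnl1 was at 435, 429, 391 and 486 CPM against 40.7 ± 4.54 CPM (log2 difference 3.25, SE 0.15, edgeR adjusted p = 4.11e-57, higher in 4 of 4 libraries). Jam3 (-4.17), Pcdh1 (-2.84), the connexin Gja1 (-2.68) and Jam2 (-0.96) were lower. Cldn5, the main endothelial claudin, was at 527, 224, 85.8 and 657 CPM in 12 cells against 890.3 ± 219 CPM and was not called (log2 difference -1.58, edgeR adjusted p = 0.18). Its level rested on the 9 cells of group 4, described further on, which held 2727 CPM. The other endocardial-gate cells held 13.9 CPM of Cldn5. Of the leukocyte adhesion and chemokine list (5 higher and 3 lower among 12 tested, median log2 difference 0.02), Cd24a (3.16) and the chemokine scavenger Ackr3 (2.26) rose beside Selp, Vcam1 and Icam1.

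Interferon-stimulated genes were lower or not called (0 higher and 20 lower among 27 tested, median log2 difference -1.17). Rsad2, an antiviral enzyme, was at 0, 0, 23.8 and 35.1 CPM against 358 ± 74.6 CPM (log2 difference -4.67, SE 0.28, edgeR adjusted p = 3.43e-21, lower in 4 of 4 libraries), and Ifit2 (-2.85), Irf7 (-1.98), Isg15 (-1.59) and Bst2 (-1.10) fell. Genes of MHC class II gave 0 higher and 4 lower among 6 tested, median log2 difference -1.99, and the differences of Cd74, H2-Aa and H2-Eb1 turned to 1.89, 1.53 and 1.86 when Cytl1 and Tmem108 alone chose the cells, as did those of the B cell genes Ms4a1, Cd79a, Cd79b and Igkc to 1.85 to 2.14. Cell cycle genes gave 0 higher and 9 lower among 17 tested, median log2 difference -3.10, with no UMI of Top2a, Birc5, Cdc20 or Ccnb2 in endocardial-gate cells and 1 each of Mki67 and Cdk1. Of the 18 genes of that list, 7 had no UMI there, so many of the fitted differences rest on 0 or 1 UMI. Their sum was 119 ± 19.1 CPM in endocardial-gate cells and 231 ± 28.3 CPM in other endothelial cells (SD, n = 4). Inducible heat shock genes gave 1 higher and 7 lower among 14 tested, median log2 difference -0.65, immediate early genes 3 higher and 4 lower among 19 tested, median log2 difference 0.18, chaperones of the endoplasmic reticulum 3 higher and 0 lower among 17 tested, median log2 difference 0.05, cholesterol genes 0 higher and 1 lower among 22 tested, median log2 difference -0.42 and glucocorticoid response genes 0 higher and 4 lower among 12 tested, median log2 difference -0.37. Among these the small heat shock protein Hspb1 (-1.16) and the kinase Sgk1 (-2.35) fell. The shares over all genes tested were 9.0% higher and 11.1% lower.

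Markers of other cell types were mostly low. The haemoglobin genes Hba-a1, Hba-a2, Hbb-bs and Hbb-bt fell, with erythroid and platelet genes at 10.0 to 71.5 CPM in sum in endocardial-gate cells. Hba-a2 had no UMI in them and was at least 120-fold lower with 3 UMIs over the group as the floor. Macrophage genes had a median of 0 UMIs per cell and reached 303 UMIs in 1 cell of control diet 2, which held 280 of the 310 Lyz2 UMIs. Pericyte and smooth muscle genes had 0 UMIs in 69 of 84 cells and reached 76 in 1 cell of high fibre 2. Of the fibroblast list (5 higher and 1 lower among 10 tested, median log2 difference 0.83), Mfap5 (183, 119.7, 157 and 251 CPM against 14.05 ± 4.01 CPM, log2 difference 3.49), Pi16 (504, 284, 257 and 426 CPM, 2.80) and Col1a2 (2.12) were among the 5 that were higher. Pdgfra, at 0, was called lower and was no longer called without any 1 library, with fitted differences of -8.29 to -7.71. Without the Dcn limit Pi16 (0.54) and Col1a2 (0.56) were no longer called. A doublet score placed 4 of the 84 cells, 3 of high fibre 2 and 1 of control diet 1, in the share of cells marked in their library, and they were kept.

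The largest falls outside the lists were in Tbx3, a transcription factor, at 0, 4.99, 0 and 0 CPM against 129 ± 30.4 CPM (log2 difference -6.68, SE 0.52, edgeR adjusted p = 4.45e-28, lower in 4 of 4 libraries), Gm12002 (-5.95), Sez6l2 (-5.43), Rtn1 (-5.42), Dach1, a factor of coronary vessel growth (-5.37), the sialyltransferase St8sia4 (-5.13), the chemokine Cxcl9 (-4.96), Ablim3 (-4.96) and Ccdc85a (-4.88). Each had at most 4 UMIs in all endocardial-gate cells, so these differences are set by few counts on that side.

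The 84 cells were not alike. A clustering of their own counts (1000 variable genes, 10 components, 12 neighbours, resolution 0.5) gave 4 groups of 33, 28, 14 and 9 cells, and 8 neighbours gave the same 4. The groups were formed on these genes, so their levels are a description with no test. At resolution 1 the first group split into 15, 10 and 8 cells and the second into 17 and 11.

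Group 1 held most of the Npr3. Its 33 cells came 3, 13, 7 and 10 from the libraries, Npr3 was counted in all 33, and the level of Npr3 over groups 1 to 4 was 2359, 107, 599 and 0 CPM. Vwf followed the same order at 3045, 1137, 2064 and 268 CPM. Plvap was at 829.7, 336, 645 and 32.2 CPM and H19 at 1301, 44.3, 977 and 0 CPM. Group 1 was led by Rps6ka2, the basement membrane collagen chain Col4a4, the cartilage matrix protein Comp, Colec11, Lum and Apoe. Lyz2 ranked first through the 1 cell of control diet 2 described above.

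Group 2, with 28 cells (4, 8, 9 and 7 by library), had Npr3 in 9 cells only. It was led by Inhba, Pthlh, the growth factor Ptn, Wnt9b and Ccdc141, and its Igfbp5 stood at 6400 CPM and its Fabp4 at 11069 CPM. Of the group's 292 Inhba UMIs, 271 lay in the 1 cell of control diet 1 described above. Wnt9b had 29 of its 67 UMIs in 1 cell of control diet 1. Igfbp6 was at 80.7, 985, 527 and 0 CPM over the groups and Adamts5, an aggrecan-cutting protease, at 40.4, 239.9, 52.1 and 53.7 CPM. Group 3, with 14 cells (4, 3, 7 and 0 by library), was led by the matrix signalling protein Ctgf, the immediate early genes Fosb and Fos, Socs3, Edn1 and Hbegf. Its Fos level was 1335 CPM.

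Group 4 goes against the label. Its 9 cells (2, 1, 1 and 5 by library) had no UMI of Npr3 or Tmem108 and entered the gate through Cytl1, at 1224, 959.6, 833 and 2995 CPM over the groups. They were led by Gkn3, Cldn5, Sema3g, Alpl, Gja5, Sox17 and Fbln5, several of them genes of arterial endothelium, and 14 of 15 arterial list genes were seen in at least 25% of them, against 3 to 7 in the other groups. Of 84 cells, 16 had Cytl1 as their sole gate gene. All 42 Gja5 UMIs lay in group 4. With the gate restricted to cells with an Npr3 UMI, 648 genes were higher and 1014 lower than in other endothelial cells, and 1452 of the 2194 calls held.

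**Figure D4:**
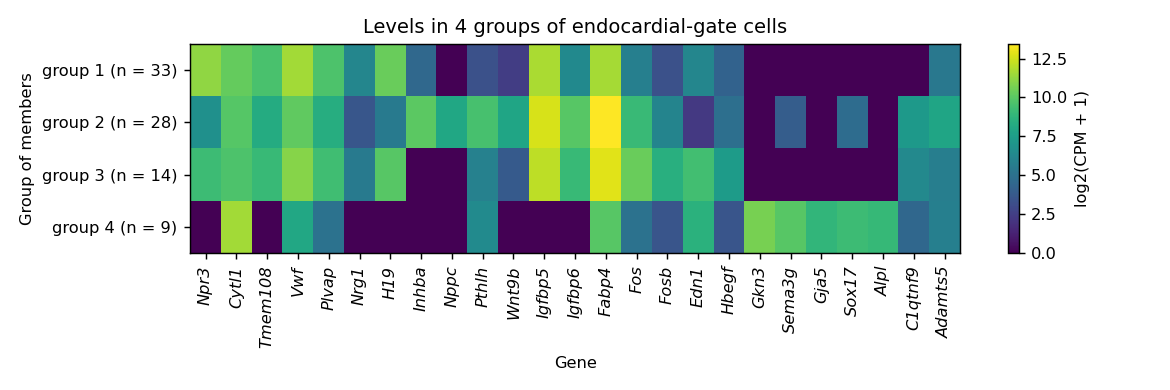
Colour gives log2(CPM + 1) of 25 genes, summed over the cells of each of the 4 groups of endocardial-gate cells. Group 1 is high in Npr3, Vwf and H19, and group 2 in Inhba (mostly from 1 cell), Pthlh, Igfbp5 and Igfbp6. Group 3 is high in Fos, Fosb and Edn1, and group 4, with Npr3 at 0, in Gkn3, Sema3g, Gja5, Sox17 and Alpl.

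The diet groups were compared first by how many endocardial-gate cells the libraries held. They made up 0.777% (exact binomial 95% interval 0.414% to 1.33%) and 1.08% (0.700% to 1.59%) of endothelial cells in the high fibre libraries, and 1.36% (0.872% to 2.01%) and 1.79% (1.12% to 2.69%) in the control diet libraries. The intervals cover counting error only. The means were 0.928 ± 0.214% (SD, n = 2) and 1.57 ± 0.304% (SD, n = 2), and the groups did not overlap. The exact two-sided permutation test gave p = 0.333, the smallest that 2 against 2 libraries allow. Without the Dcn limit the shares were larger, at 4.53 ± 1.08% and 6.63 ± 0.435%, with the high fibre group lower by 2.10 percentage points in place of 0.644. The mean share was also lower in the high fibre group with gate sums of at least 3 and at least 6, with an Npr3 UMI required, with at least 3000 UMIs, with doublets removed, with the gate applied after thinning, and without each library in turn. It was not computed for gates on Npr3 alone, on Cytl1 and Tmem108 alone, or with 0 UMIs of the other-cell genes. Cells of each sex were unevenly recovered: cells with Y-linked UMIs and no Xist were 54.5%, 50%, 42.9% and 60.0% of the endocardial-gate cells that could be assigned and 65.7%, 41.3%, 17.3% and 43.8% of the other endothelial cells. Their part in the share was not tested.

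Few genes were called by diet within endocardial-gate cells, and with 2 libraries a group and 13 to 25 cells in each this does not show that few changed. Of 3719 genes that passed the filter, 3 were called (0.0807%), 1 higher (0.0269%) and 2 lower (0.0538%) in offspring of high fibre dams, and 137 had an unadjusted p under 0.05. C1qtnf9, a secreted relative of adiponectin (chr14:60768134-60780869, with Mipepos on the other strand), was at 0, 14.96, 114 and 140.4 CPM, or 0, 3, 24 and 28 UMIs, where 0 allows up to 22.9 CPM (log2 difference -3.74, SE 0.65, edgeR adjusted p = 0.0097). Adamts5 (chr16:85856173-85901828) was at 53.5, 19.9, 162 and 211 CPM (log2 difference -2.46, SE 0.44, edgeR adjusted p = 0.0097). Both were lower in each high fibre library than in each control diet library. Igfbp6 (chr15:102144362-102149511), another insulin-like growth factor binding protein, was at 611, 1017, 262 and 135 CPM and higher in each high fibre library (log2 difference 2.03, SE 0.35, edgeR adjusted p = 0.0097). Over all genes tested, 16.2% were higher and 14.8% lower in both high fibre libraries without overlap.

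Most UMIs of the 3 called genes lay in group 2, and none of the 3 was called without the Dcn limit. C1qtnf9 was counted in 14 cells, Adamts5 in 25 and Igfbp6 in 26, and 41 of 55, 65 of 87 and 267 of 366 UMIs lay in group 2. Group 2 made up 31.6% of the high fibre and 34.8% of the control diet cells, but its makeup was not even. The 17 cells of its finer split (4, 5, 6 and 2 by library) held 6.13 CPM of C1qtnf9, 349 CPM of Adamts5 and 1527 CPM of Igfbp6. The other 11 (0, 3, 3 and 5 by library) held 371, 74.2 and 167 CPM, with a median gate sum of 5 and 18109.8 CPM of Fabp4. The part of this uneven split in the diet values was not tested. Without the Dcn limit, the log2 differences were -0.60 for C1qtnf9, -0.43 for Adamts5 and 0.64 for Igfbp6. With 0 UMIs required of Dcn, C1qa, C1qb, C1qc and Kcnj8, Igfbp6 turned to -0.33 and no gene was called by edgeR, with 28 at an unadjusted p under 0.05. That setting left 5, 3, 8 and 9 cells by library and 1163 tested genes, so lost calls there can come from fewer cells. With a gate sum of at least 6, no gene was called by edgeR either, with 101 at an unadjusted p under 0.05. There Adamts5 gave -2.59 and Igfbp6 2.12, and C1qtnf9 did not pass the filter on low counts. With an Npr3 UMI required, edgeR called 0 genes, with 121 at an unadjusted p under 0.05. Among cells with Xist only and cells with Y-linked UMIs only, 0 genes were called by edgeR, with 39 and 73 at an unadjusted p under 0.05. In DESeq2 1 gene was called, Igfbp6. Leaving out a library raised the count, to 23 without control diet 1, 23 without control diet 2, 11 without high fibre 1 and 10 without high fibre 2, and all 3 genes were among them each time except Adamts5 without high fibre 2, at -1.84.

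Igfbp7 (99.3, 135, 324 and 316 CPM, log2 difference -1.44) and Alpl (176, 84.8, 9.53 and 30.1 CPM, log2 difference 2.61) had the next smallest p and were not called, both with an edgeR adjusted p of 0.0723. All 48 Alpl UMIs lay in group 4. Of the markers, Vwf gave a log2 difference of -0.40 (SE 0.25) and Plvap -0.56 (SE 0.71), neither called. Of 17 genes that stood out by diet elsewhere in these data, none was called here. Igfbp5 gave -0.48, Cldn5 -0.04, Manf 0.03 and Creld2 0.35, the others did not pass the filter, and Slc15a2, a peptide transporter, had no UMI. Cldn5 turned to 2.05 and was called without control diet 2.

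In other endothelial cells of the same 4 libraries, 10 of 12201 genes were called (0.0820%), 8 higher (0.0656%) and 2 lower (0.0164%), and the calls were 25 higher and 16 lower without control diet 1, and 37 higher and 4 lower without high fibre 2. The values there for the 3 genes were 382, 451, 489 and 499 CPM for C1qtnf9, 53.1, 50.5, 39.5 and 41.2 CPM for Adamts5 and 9.10, 6.38, 4.802 and 3.66 CPM for Igfbp6, with log2 differences of -0.25, 0.36 and 0.84, none called. C1qtnf9 was thus lower in endocardial-gate cells than in other endothelial cells in every library, and Igfbp6 higher. The difference between the diet effects was tested directly as an interaction: 11 of 11700 genes were called (0.0940%), 1 higher (0.00855%) and 10 lower (0.0855%) in endocardial-gate cells. C1qtnf9 (log2 difference of differences -3.63, SE 0.61, edgeR adjusted p = 1.42e-05) and Adamts5 (-2.86, SE 0.47, edgeR adjusted p = 8.67e-06) were among them and Igfbp6 was not. DESeq2 called 0, with 149 at an unadjusted p under 0.05 against 465 in edgeR, and edgeR called 2 higher and 25 lower without control diet 1, 1 higher and 13 lower without control diet 2, 1 without high fibre 1 and 0 without high fibre 2.

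**Figure D5:**
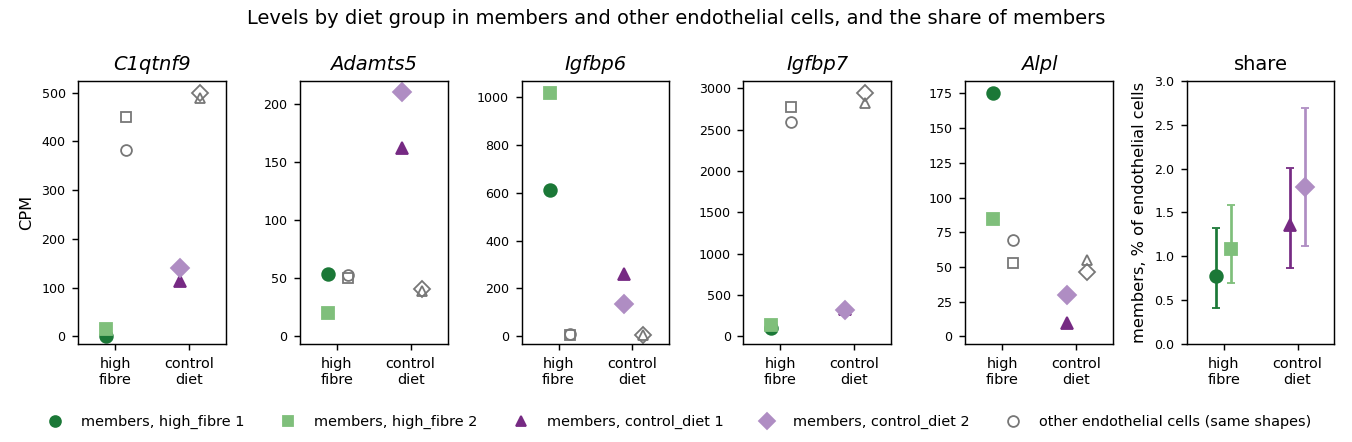
The first 5 panels give CPM in each library for endocardial-gate cells (filled) and other endothelial cells (open) by diet group, and the last gives endocardial-gate cells as a percentage of endothelial cells with exact binomial 95% intervals. C1qtnf9 and Adamts5 lie lower and Igfbp6 higher in the filled high fibre points than in the filled control diet points, and the intervals of the shares overlap between the groups.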

How the data were processed

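Heart cells of 4 libraries were read as the deposited matrices of whole UMI counts per gene and barcode, which the authors made with Cell Ranger 3.1.0 against mm10, per the submitters' processing notes. The lowest barcode held 500 UMIs. No cell annotation or doublet removal is given in the sources used here. Levels in CPM were computed here from the counts.

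The members and gene lists were chosen with earlier results of these data known. Cells with at least 1000 UMIs and at most 20% mitochondrial UMIs were gated as the opening describes, and counts were summed per library and class. Genes were kept by edgeR 4.0.16 filterByExpr (minimum count 10), and tested with glmQLFTest after TMM scaling, with Benjamini-Hochberg adjustment at 0.05. Endocardial-gate cells were compared with other endothelial cells in 8 sums with the library as a block, diet within each class in 4 sums without a block, and the difference of diet effects in the 8 sums. The gate genes stayed out of the class test. Other comparisons were not made.

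Named genes were the 15 largest rises and falls among called genes that moved the same way in all 4 libraries with a mean of at least 50 CPM, up to 4 members of each list, the marker genes, and the called genes by diet. 1 gene among the largest rises is not reported here. Further list members named were chosen after their values were seen, mostly because their calls held without each library, and the same holds for the genes that lead the cell groups. Positions are from GENCODE M21 on GRCm38, where 30934 of 31053 gene IDs matched (99.6%), and promoters from RefSeq.

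Alternatives were DESeq2 1.42.0, RLE scaling, other gates, depth limits, doublets removed, thinning to 2000 UMIs, no filter on low counts, each library left out, a block for the repeat number, and cells of 1 sex, and, chosen after seeing the data, no limit on Dcn and Npr3 required. Doublets were scored by simulated pairs in each library, and 0.8% of cells per 1000 cells were marked but kept. Intervals are exact binomial (Clopper-Pearson, 95%). Cells were clustered with scanpy 1.11.5 and leidenalg 0.10.2 under Python 3.11.15, and R was 4.3.3.

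The tests were checked on simulated counts with known changes, and recovery was partial. Changes of 1 log2 unit were recovered in 17.3% (class), 6.7% (diet, endocardial-gate cells), 26.3% (diet, other endothelial cells) and 0% (interaction). Changes of 2 log2 units were recovered in 64.6%, 65.2%, 99% and 11.2%, in the same order. Of the calls, 3.6%, 5.7%, 7.5% and 8.3% fell on genes without a change. The simulated sums had the same fixed dispersion for every gene. Apart from the set changes, libraries differed in depth only, and no single cell could dominate a gene. Recovery and false calls in the real sums may therefore differ from these values.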

Additional observations from a re-analysis of the deposited data

Results flagged for a closer look

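The difference of the diet effect between endocardial-gate cells and other endothelial cells passed the test for 11 genes (edgeR's quasi-likelihood test, adjusted p under 0.05), given here as log2 differences of differences. Inhba stood at -6.53, with 91.2% of its UMIs in 1 cell of control diet 1, and at -0.37 without that library. C1qtnf9 was at -3.63 and Adamts5 at -2.86, both also called by diet within endocardial-gate cells. Cebpb gave -3.50, Gm12840 -3.27, AW112010 -2.42, Fosb -2.15, Cryab -1.90, Prnp -1.69 and Igfbp7 -1.37, and Alpl gave 2.33 with all its UMIs in the 9 cells of group 4. Cebpb and Cryab were called higher by diet in other endothelial cells. None of the 11 was called with DESeq2, without high fibre 1, without high fibre 2 or without the Dcn limit.

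A further 339 cells met every other line of the gate and were kept out by Dcn alone. They outnumber the 84 endocardial-gate cells, and their Npr3, Cytl1, Vwf and Plvap levels are given in the report.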

How the results depend on the processing

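Of 981 genes higher and 1213 lower in endocardial-gate than in other endothelial cells, DESeq2 called 713 lower. There were 538 higher and 802 lower when Npr3 alone chose the cells, 648 higher when Npr3 was required beside the gate, 2544 higher and 2433 lower without the Dcn limit, 315 higher and 506 lower with 0 UMIs of the other-cell genes, and 322 higher and 545 lower after thinning to 2000 UMIs. Leaving out 1 library gave 781 to 892 higher and 931 to 1013 lower.

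The diet calls in endocardial-gate cells were 1 higher and 2 lower. DESeq2 called 0 lower. There were 0 higher and 0 lower in Xist cells, in Y cells, with a gate of 6 or more, with Npr3 required and with 0 UMIs of the other-cell genes, by edgeR, with 28 to 121 at an unadjusted p under 0.05. There were 2 higher and 4 lower with doublets removed, 1 lower without the Dcn limit, 3 higher and 11 lower without a filter on low counts, and 5 to 9 higher and 5 to 15 lower without 1 library. In other endothelial cells, 8 were higher and 2 lower, against 0 and 1 without the Dcn limit and 7 to 37 and 1 to 16 without 1 library. The interaction gave 1 higher and 10 lower, against 0 and 0 with DESeq2, 0 and 6 with a gate of 6 or more, 0 higher with Npr3 required, 1 lower without the Dcn limit, 0 and 2 with 0 UMIs of the other-cell genes, and 0 to 2 and 0 to 25 without 1 library. The share of endocardial-gate cells was lower in the high fibre group by 2.10 percentage points without the Dcn limit (high fibre minus control diet -2.10, against -0.644) and by between 0.429 and 0.859 without 1 library (-0.859 to -0.429).

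With the repeat number as a block, 2 genes were higher and 9 lower by diet in endocardial-gate cells and 207 and 92 in other endothelial cells. The labels do not say that a number pairs libraries, and libraries with the same number deviated with a correlation of -0.05 in endocardial-gate cells and 0.28 in other endothelial cells. The block was not run for the interaction, which has the library as its block.

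For single genes, 3820 of 4260 values kept their direction and their side of the threshold, 340 lost the call, 79 gained one and 21 turned. Gja5 gave -8.38 when Npr3 alone chose the cells and -8.21 with Npr3 required, both from 0 UMIs. Nr4a1 gave -0.53 and -0.21 with these gates and -1.55 after thinning. When Cytl1 and Tmem108 alone chose the cells, H2-Aa gave 1.53, Igkc 1.96, H2-Eb1 1.86, Cd74 1.89, Ms4a1 2.02, Cd79b 2.14 and Cd79a 1.85. With 0 UMIs of the other-cell genes, Lyz2 gave -1.46, Fabp5 -0.038 and, by diet, Igfbp6 -0.33, and leaving out 1 library gave -1.27 to 2.11 for Lyz2, lowest without control diet 2, and -0.88 to 2.05 for Cldn5 by diet, highest without control diet 2. In the interaction, Alpl gave -0.26 with Npr3 required, and Gm12840 0.037, Fosb 0.12 and Igfbp7 0.24 without the Dcn limit. The causes were not tested. With 13 to 25 cells in each library, genes of low level could not be tested, and the number of animals is not known.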
